A study of Homo sapiens with 30 samples.

Results

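The 45 genes described here serve DNA replication and cell division, and were followed in human embryonic kidney (HEK293) cells that differ in a factor VIII transgene and in 8 knockouts. They were listed by name, with earlier results of these data known: 19 S-phase genes from MCM2 to CCNE2, and 26 genes of G2 and mitosis from CCNA2 to CDKN3. All 45 were found among the 16975 genes of the deposited table, and all 45 had enough reads to be tested. HEK28 is a HEK293 derivative made to secrete factor VIII, the clotting factor missing in haemophilia A. The parental HEK line was the second group; its titles and genotype labels name it so, while the cell line label of its samples reads HEK28 as in all others. In the other 8, made from HEK28, CRISPR had targeted 1 gene each: CALR or CANX, chaperones of the endoplasmic reticulum; MCFD2 or LMAN1, which carry factor VIII out of it; or the autophagy genes ATG7, GABARAP, GABARAPL1 and GABARAPL2. Each of the 10 groups had 3 libraries. The knockout lines share the factor VIII transgene background of HEK28, which the parental line lacks, and no group was treated with an agent. How much factor VIII each line secretes was not read here. Whether a knockout line is 1 clone, and whether the libraries of a group came from separate cultures, is not given in the sources used here. The p-values therefore set each difference against a spread between libraries that may be technical, and the effect of a knockout and of a line's own history cannot be told apart.

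The cell cycle runs on waves of transcription. Late in G1, cyclin-dependent kinases inactivate the RB family, E2F factors are freed, and genes for licensing origins, making nucleotides and copying DNA switch on. Genes of G2 and mitosis come later: the MuvB core, first with the repressors of the DREAM complex and then with B-MYB and FOXM1, acts through a short promoter element called the CHR, often beside CCAAT boxes bound by NF-Y. Mitosis ends when the anaphase-promoting complex, with CDC20, has cyclin B destroyed. HEK293 cells carry the adenovirus E1A and E1B genes, whose products bind the RB family and p53, so the line is a limited model of the controls that act through them.

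These elements can be read in the promoters of the members. A RefSeq promoter window (GRCh38.p14, 250 bases before to 50 after the start) was found for 37 of the 45, 16 S-phase and 21 G2 and mitosis members, and 7 members had more than 1 window and were counted as holding an element if any window did. No window was used for MCM4, MCM5, CCNE2, AURKA, TTK, TPX2, UBE2C and BIRC5. Both strands were searched. The 130 bases before the start are shown for 8 members of G2 and mitosis and 5 of S phase whose levels the results below turn on, from 5′ to 3′ on the gene's own strand. Where a gene has several windows the first listed is shown. Capitals mark a CHR element (TTTGAA or TTTAAA, reading TTCAAA or TTTAAA on the other strand), a CCAAT box (CCAAT or ATTGG) or an E2F element (TTTGGCGC, TTTCGCGC, TTTCCCGC, TTTGCCGC or their reverse complements).
CCNB1 (chr5:69167020-69167149, plus strand): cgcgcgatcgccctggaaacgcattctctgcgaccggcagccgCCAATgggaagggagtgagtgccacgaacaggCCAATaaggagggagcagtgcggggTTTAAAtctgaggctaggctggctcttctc
CCNB2 (chr15:59105016-59105145, plus strand): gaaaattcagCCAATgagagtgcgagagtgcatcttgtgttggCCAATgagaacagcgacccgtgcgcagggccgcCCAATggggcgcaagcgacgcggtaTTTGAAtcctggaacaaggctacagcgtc
KIF11 (chr10:92593000-92593129, plus strand): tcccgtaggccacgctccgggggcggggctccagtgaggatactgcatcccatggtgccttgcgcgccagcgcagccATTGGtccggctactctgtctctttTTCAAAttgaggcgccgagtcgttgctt
CDC20 (chr1:43358851-43358980, plus strand): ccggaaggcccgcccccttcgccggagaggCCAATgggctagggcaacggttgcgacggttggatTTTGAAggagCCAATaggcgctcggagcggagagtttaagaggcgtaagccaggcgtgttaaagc
PLK1 (chr16:23678759-23678888, plus strand): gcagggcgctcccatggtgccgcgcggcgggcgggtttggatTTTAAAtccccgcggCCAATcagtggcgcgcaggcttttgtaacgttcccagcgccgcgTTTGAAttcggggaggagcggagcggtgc
HMMR (chr5:163460502-163460631, plus strand): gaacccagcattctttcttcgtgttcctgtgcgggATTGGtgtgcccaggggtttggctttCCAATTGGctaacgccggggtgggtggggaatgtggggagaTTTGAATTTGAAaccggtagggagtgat
MKI67 (chr10:128126424-128126553, minus strand): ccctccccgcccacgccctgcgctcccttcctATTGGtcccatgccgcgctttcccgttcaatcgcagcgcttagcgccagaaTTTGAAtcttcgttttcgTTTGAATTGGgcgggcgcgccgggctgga
CDCA8 (chr1:37692386-37692515, plus strand): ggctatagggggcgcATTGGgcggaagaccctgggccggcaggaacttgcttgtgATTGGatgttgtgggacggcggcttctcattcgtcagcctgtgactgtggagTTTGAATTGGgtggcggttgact
MCM6 (chr2:135876444-135876573, minus strand): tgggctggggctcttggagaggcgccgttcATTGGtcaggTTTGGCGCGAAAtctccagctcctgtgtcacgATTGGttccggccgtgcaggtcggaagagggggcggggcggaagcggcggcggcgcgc
PCNA (chr20:5126623-5126752, minus strand): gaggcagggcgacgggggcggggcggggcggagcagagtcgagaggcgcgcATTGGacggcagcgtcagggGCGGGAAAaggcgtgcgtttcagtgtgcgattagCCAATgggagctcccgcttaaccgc
MCM7 (chr7:100101398-100101527, minus strand): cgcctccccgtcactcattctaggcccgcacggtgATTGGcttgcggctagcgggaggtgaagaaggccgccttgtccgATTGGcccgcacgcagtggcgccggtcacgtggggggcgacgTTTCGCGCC
CDT1 (chr16:88803659-88803788, plus strand): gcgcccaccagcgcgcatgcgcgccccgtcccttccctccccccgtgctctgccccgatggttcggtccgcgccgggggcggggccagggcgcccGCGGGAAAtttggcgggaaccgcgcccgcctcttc
TYMS (chr18:657523-657652, plus strand): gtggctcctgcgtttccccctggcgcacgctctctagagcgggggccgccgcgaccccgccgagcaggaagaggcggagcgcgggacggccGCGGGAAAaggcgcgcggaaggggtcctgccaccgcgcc
In CCNB1, CCNB2, KIF11 and PLK1 a CHR element lies close before the start, and CCAAT boxes lie upstream of it. In MKI67 and CDCA8 the CHR element TTTGAA overlaps a CCAAT box on the other strand, and in MCM6 an E2F element on 1 strand overlaps another on the opposite strand. CDT1 and TYMS hold an E2F element and neither of the other motifs in the stretch shown.

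The CHR element was in the windows of 18 of 21 G2 and mitosis members (85.7%) and of 4 of 16 S-phase members (25%), against 7605 of 27305 genes with a window (27.9%). For the E2F element the shares were 2 of 21 (9.52%, CDK1 and NUSAP1) and 11 of 16 (68.8%), against 3.99% of all genes. CCAAT boxes were common in both sets, in 90.5% of G2 and mitosis members and 68.8% of S-phase members against 39.7% of all genes, and 2 or more boxes were in 66.7% and 50% against 12.9%. A CHR within 60 bases before the start with a CCAAT box 20 to 40 bases upstream of it, a spacing chosen after the windows were seen, was in CCNB1, CCNB2, CDK1, KIF11, KIF20A, NUSAP1 and HMMR (33.3%), in RRM2 alone among S-phase members (6.25%), and in 0.458% of all genes. The sets thus differ in their promoter letters as well as in their roles. A match is a description of letters, not of a bound factor.

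Levels are log2 values per unit of gene length, on a scale known only up to a constant. Library totals ran from 143550 to 3791598 reads with a median of 588955, and the 44 members whose reads could be recovered had 603 to 23184 reads over all libraries, but only 10 to 923 over the 3 parental and 14 to 709 over the 3 HEK28 libraries. The HEK28 libraries differed among themselves: replicates 1 and 2 had a chi-square per degree of freedom of 1.81 between them, and replicate 3 had 6.15 and 9.72 against them. Of genes with at least 20 reads to be expected from the other groups' median (a minimum chosen after the data were seen), 7 and 17 were at 0 in replicates 1 and 2, 0 in replicate 3 and 0 to 6 in the 27 other libraries. Calls that rest on HEK28 are therefore followed by their values or counts without replicates 1 and 2. LMAN1 replicate 2 stood apart as well, with a chi-square per degree of freedom of 5.28 and 7.12 against replicates 1 and 3, which had 2 between them. In it MCM2 was lower (6.30 beside 8.36 and 8.04) and MCM5 higher (10.26 beside 9.73 and 9.75). The targeted gene was lower than in the other 7 knockouts, with no overlap of libraries, for CANX, CALR, LMAN1 and MCFD2 (4 of 8), and lower than in HEK28 without overlap for CANX, CALR and LMAN1 (3 of 8). For GABARAP, GABARAPL1, GABARAPL2 and ATG7 the libraries overlapped in both, so the data do not check these labels. All 8 embryonic kidney line markers were listed, and the 6 with recovered reads summed to 446 to 845 CPM (reads scaled to a common library size). Most of those reads were of VIM, so the sum says little about the other markers. The mean log2 levels of KRT8, KRT18, CDH2 and PAX2 were higher in parental HEK than in HEK28 (KRT18 9.57 and 8.19). Those of VIM, NEFL, NEFM and LIN28B were lower in parental HEK (VIM 6.49 and 7.94). Summed fibroblast markers (2 of 8 listed, COL1A1 and COL3A1) were 40.9 to 50.9 CPM in parental HEK, 13.7 to 20.9 in HEK28 and 3.14 to 34.4 in the knockouts; their part in the results against the parental line was not tested. Blood markers (6 of 8) summed to 2.41 to 230 CPM over the 30 libraries and endothelial markers (1 of 5, PECAM1) to 0 to 13.9.

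The parental line had less RNA of most of the mitotic genes than either HEK28 or the mean of the knockouts, while the replication genes had no common direction. Against parental HEK, 16 of the 26 G2 and mitosis members were higher in HEK28 and 1, BIRC5, was lower, with a median log2 difference of 0.75 against -0.07 over all genes tested. Of the 19 S-phase members 4 were higher (21.1%) and 6 lower (31.6%), with a median of 0.06. Among all 11327 genes tested 16.7% were higher and 15.2% lower in this comparison. The HEK28 libraries enter the comparison of the 8 knockouts' mean with parental HEK only through the fit's shared estimate of the spread. That mean was above parental HEK for 18 of 26 G2 and mitosis members and below it for 0, with a median of 0.78 against 0.10 over all genes. In the same limma fit 18 of the 26 had an unadjusted p under 0.05. Of S-phase members 5 were higher (26.3%) and 3 lower (15.8%), with a median of 0.17. The background there was 23.9% of genes higher and 13.4% lower, near the shares of the S-phase members. These comparisons share the 3 parental libraries, so they are not independent of each other. Fewer cells in a phase and less RNA per cell cannot be told apart in these bulk samples.

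Cyclin B and its kinase drive entry into mitosis. CCNB1, cyclin B1, had log2 levels of 2.31, 2.37 and 2.83 in the parental libraries, 4.81, 4.34 and 4.25 in HEK28, and 3.28, 3.89 and 4.25 (lowest, median and highest) over the 24 knockout libraries. The 3 parental libraries lay below all 27 others. HEK28 was higher by 1.96 (SE 0.21, adjusted p = 2.06e-07) and the knockouts by 1.33 (SE 0.16, adjusted p = 4.64e-07) on the log2 scale. For CCNB2, cyclin B2, the levels were 2.74, 4.09 and 4.64 in parental HEK, 5.08, 5.01 and 6.73 in HEK28 and 5.06, 6.12 and 6.97 (lowest, median and highest, as for all members below) in the knockouts. It was higher by 1.78 (SE 0.46, adjusted p = 0.00429) in HEK28 and by 2.26 (SE 0.34, adjusted p = 1.32e-05) in the knockouts, and again no parental library reached the others. CDK1, the kinase that cyclin B activates, moved less: its levels were 7.58, 7.43 and 7.15 in parental HEK, 7.95, 7.99 and 7.87 in HEK28 and 7.93, 8.29 and 8.71 in the knockouts. The differences were 0.55 (SE 0.15, adjusted p = 0.00648) and 0.94 (SE 0.11, adjusted p = 4.52e-07). CCNA2, cyclin A2, which acts from S phase into G2, did not pass in either comparison (-0.13 and 0.08).

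PLK1, AURKA, TPX2 and CDC20 were higher in both comparisons, and AURKB and UBE2C in the knockouts. PLK1, the polo-like kinase of centrosome maturation and mitotic entry, had levels of 9.30, 9.14 and 9.24 in parental HEK, 10.01, 10.67 and 10.73 in HEK28 and 9.50, 10.39 and 10.85 in the knockouts. Its parental libraries lay close together (SD 0.08, n = 3) and below every other library. The log2 differences were 1.24 (SE 0.17, adjusted p = 7.88e-06) and 1.13 (SE 0.13, adjusted p = 3.21e-07). AURKA, the kinase of spindle poles, went from 9.48, 9.05 and 9.36 in parental HEK to 10.48, 10.80 and 10.64 in HEK28 and 9.60, 10.62 and 11.16 in the knockouts. Those levels differed by 1.34 (SE 0.18, adjusted p = 3.46e-06) and 1.22 (SE 0.13, adjusted p = 1.34e-07). TPX2, which activates AURKA on spindle microtubules, had 7.82, 7.45 and 7.90 in the parental line, 8.81, 9.57 and 8.96 in HEK28 and 8.05, 8.74 and 9.14 in the knockouts, a rise of 1.38 (SE 0.17, adjusted p = 1.09e-06) and 0.97 (SE 0.13, adjusted p = 1.76e-06). The 3 parental libraries of AURKA and of TPX2 lay below all 27 others. AURKB, the kinase of the chromosomal passenger complex, was higher in the knockouts (1.01, SE 0.13, adjusted p = 9.08e-07) and did not pass in HEK28 (0.39, SE 0.17, adjusted p = 0.0807). CDC20, which activates the anaphase-promoting complex, had levels of 6.21, 6.20 and 7.31 in parental HEK, 7.71, 8.57 and 8.13 in HEK28 and 7.30, 8.22 and 8.66 in the knockouts, and was higher by 1.56 (SE 0.26, adjusted p = 5.97e-05) and 1.55 (SE 0.19, adjusted p = 9.39e-07). UBE2C, the ubiquitin-conjugating enzyme of the same complex, was higher in the knockouts (1.12, SE 0.34, adjusted p = 0.0132) and did not pass in HEK28 (-0.29), whose libraries had 5.39, 6.61 and 8.64.

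Genes of the spindle checkpoint and the kinetochore differed widely in the size of their change. BUB1, a checkpoint kinase of the kinetochore, was low throughout, with 14 reads over the 3 parental libraries. Its levels were 0.56, -0.41 and 0.04 in parental HEK, 2.37, 2.38 and 2.31 in HEK28 and 0.56, 2.42 and 2.87 in the knockouts, and it was higher by 2.29 (SE 0.31, adjusted p = 4.28e-06) and 2.16 (SE 0.23, adjusted p = 8.79e-08). The HEK28 libraries lay close together, and the lowest knockout library and the highest parental one had the same level. BUB1B, which encodes the checkpoint inhibitor BUBR1, had 6.62, 6.68 and 6.92 in parental HEK, 7.18, 7.79 and 7.37 in HEK28 and 6.42, 7.38 and 8.08 in the knockouts, with differences of 0.71 (SE 0.20, adjusted p = 0.00918) and 0.59 (SE 0.15, adjusted p = 0.00337). Its MCFD2 mean was 6.66, beside 6.74 in parental HEK. CENPE, the kinetochore motor that moves chromosomes to the spindle's middle, went from 2.22, 2.03 and 1.94 in the parental line to 3.43, 3.07 and 3.49 in HEK28 and 2.52, 3.21 and 3.68 in the knockouts, higher by 1.27 (SE 0.21, adjusted p = 5.26e-05) and 1.16 (SE 0.16, adjusted p = 2.63e-06). Not every kinetochore gene followed. CENPF, the member with the most recovered reads, did not pass (0.02 and 0.18), nor did TTK, the MPS1 kinase (-0.22 and 0.24).

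HMMR, a microtubule-binding spindle protein also known as RHAMM, had the largest difference from the parental line of all 45 members. Its levels were 0.46, 0.71 and 2.28 in parental HEK, from 22 reads in all, 3.74, 3.13 and 4.24 in HEK28 and 3.75, 4.23 and 4.95 in the knockouts. HEK28 was higher by 2.55 (SE 0.33, adjusted p = 2.68e-06) and the knockouts by 3.09 (SE 0.25, adjusted p = 9.68e-10), ratios of 5.88 and 8.54. KIF11, the motor that pushes spindle poles apart, had 6.78, 7.25 and 7.50 in parental HEK, 7.82, 8.36 and 7.84 in HEK28 and 6.99, 7.69 and 8.23 in the knockouts, with differences of 0.83 (SE 0.20, adjusted p = 0.00303) and 0.55 (SE 0.15, adjusted p = 0.00625). Its knockout libraries overlapped the parental ones. KIF20A, a motor of cytokinesis, passed in the knockouts (1.45, SE 0.41, adjusted p = 0.00777) and not in HEK28 (0.53), and KIF23, another, in neither (0.23 and 0.47). TOP2A, the topoisomerase that untangles sister chromatids, had 11.21, 11.44 and 11.59 in the parental line, 12.29, 12.40 and 11.55 in HEK28 and 11.42, 11.87 and 12.29 in the knockouts, higher by 0.67 (SE 0.16, adjusted p = 0.00282) and 0.42 (SE 0.12, adjusted p = 0.00903) with libraries that overlapped in both. MKI67, the Ki-67 antigen that coats mitotic chromosomes, had 8.70, 8.81 and 8.73 in parental HEK, 9.33, 9.75 and 9.72 in HEK28 and 9.00, 9.39 and 9.68 in the knockouts. That is a rise of 0.85 (SE 0.14, adjusted p = 7.1e-05) and 0.62 (SE 0.11, adjusted p = 7.3e-05), with the parental libraries below all others. CDCA8, the passenger complex subunit borealin, had 4.83, 4.66 and 4.78 in the parental line, 5.73, 5.24 and 5.69 in HEK28 and 4.61, 5.34 and 5.82 in the knockouts, higher by 0.80 (SE 0.19, adjusted p = 0.0021) and 0.50 (SE 0.14, adjusted p = 0.00681). Its means were 4.86 in CALR and 4.83 in MCFD2, beside 4.76 in parental HEK. BIRC5, or survivin, belongs to the same complex and went the other way: it was lower in HEK28 (-1.05, SE 0.27, adjusted p = 0.00451) and did not pass in the knockouts (-0.33). CCNF, cyclin F, passed in HEK28 (0.98, SE 0.36, adjusted p = 0.0407) and not in the knockouts (0.37). NUSAP1, a spindle-associated protein (-0.21 and -0.08), and CDKN3, a phosphatase of cyclin-dependent kinases (0.36 and 0.41), passed in neither.

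Single S-phase members passed in both directions, in the knockouts at shares near those over all genes. MCM7, a subunit of the MCM2-7 helicase, was lower in both comparisons: its log2 levels were 8.43, 8.48 and 8.44 in parental HEK, 7.82, 8.34 and 8.02 in HEK28 and 7.51, 7.83 and 8.40 in the knockouts. The differences were -0.39 (SE 0.14, adjusted p = 0.0351) and -0.59 (SE 0.10, adjusted p = 9.91e-05), and every parental library lay above all others. CDT1, which loads that helicase at origins, behaved alike in these values, with 7.35, 7.73 and 7.89 in the parental line, 6.64, 6.94 and 6.36 in HEK28 and 5.89, 6.54 and 7.04 in the knockouts, and differences of -1.01 (SE 0.20, adjusted p = 0.000367) and -1.16 (SE 0.15, adjusted p = 1.22e-06). FEN1, the flap nuclease that trims Okazaki fragments, had 7.06, 7.47 and 6.94 in parental HEK, 4.51, 4.70 and 6.53 in HEK28 and 5.69, 6.47 and 7.00 in the knockouts. It was lower in both, by -1.91 (SE 0.37, adjusted p = 0.000333) and -0.70 (SE 0.28, adjusted p = 0.0491), but the lowest HEK28 libraries were replicates 1 and 2, and the knockout libraries overlapped the parental ones. CCNE2, cyclin E2, was the S-phase member higher in both: with 10 reads in all in the parental line its levels were 1.23, -0.23 and 0.08 there, 1.82, 2.53 and 2.52 in HEK28 and 0.66, 1.67 and 2.56 in the knockouts, differences of 1.93 (SE 0.40, adjusted p = 0.000698) and 1.26 (SE 0.30, adjusted p = 0.00191). CCNE1, cyclin E1, passed in neither (-0.30 and 0.27).

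Other members of the helicase and of nucleotide supply passed in 1 comparison and not in the other. In HEK28 MCM5 (1.21, SE 0.25, adjusted p = 0.000763), GINS1 (1.07, SE 0.37, adjusted p = 0.0309) and MCM4 (0.82, SE 0.19, adjusted p = 0.00205) were higher than in the parental line, GINS1 being part of the complex that activates the helicase. MCM2 (-2.25, SE 0.82, adjusted p = 0.0386), PCNA (-0.87, SE 0.30, adjusted p = 0.0292) and GINS2 (-0.86, SE 0.24, adjusted p = 0.00841) were lower. MCM2 rests on 2 libraries, since its HEK28 levels of 1.81, 4.39 and 7.82 came from 0, 7 and 59 reads. In the mean of the knockouts RRM1, the large subunit of ribonucleotide reductase (1.70, SE 0.28, adjusted p = 3.97e-05), MCM6 (1.38, SE 0.34, adjusted p = 0.0027), CDC45, which completes the active helicase with the MCM and GINS subunits (1.22, SE 0.37, adjusted p = 0.0121), and TYMS, thymidylate synthase (0.73, SE 0.21, adjusted p = 0.00886), were higher than in the parental line. In the GABARAP knockout TYMS was below all parental libraries, at 4.12, 3.87 and 4.02 beside 4.31, 4.72 and 4.73. MCM3, RRM2, CDC6 and UHRF1 passed in neither, with differences between -0.76 (CDC6 in HEK28) and 0.38 (MCM3 in HEK28).

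Without HEK28 replicates 1 and 2, which leaves a lone HEK28 library whose spread is taken from the other groups, 15 G2 and mitosis members were higher and 0 lower than in parental HEK, and of S-phase members 4 were higher and 1 lower, where 13.3% and 8.61% of all genes were. Without replicate 3 instead, the counts were 16 and 2, and 5 and 8. Of the named members CDK1 (0.48), KIF11 (0.66), BUB1B (0.63), TOP2A (0.14), BIRC5 (-0.60), FEN1 (-0.63), GINS2 (-0.63), MCM7 (-0.43), MCM4 (0.44), MCM5 (0.42) and GINS1 (0.65) no longer passed, and CCNF (-0.19), PCNA (0.10) and MCM2 (0.90) changed sign. Those that passed without them included HMMR (3.09), CCNB2 (2.90), BUB1 (2.24), CCNE2 (2.16), CCNB1 (1.75), CDC20 (1.55), PLK1 (1.50) and CDT1 (-1.30). In the knockouts the call of FEN1 was lost in 25 of 34 other settings. There, leaving out parental replicate 1 ended the calls of MCM6 (0.84), TYMS (0.59), KIF11 (0.35) and TOP2A (0.32), replicate 2 that of KIF20A (1.02), replicate 3 that of UBE2C (1.05), and either replicate 1 or 3 that of CDC45 (1.09 and 0.83). With only the groups compared in the fit, 5 G2 and mitosis members and 0 S-phase members passed in HEK28 (7 S-phase members at an unadjusted limma p under 0.05).

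**Figure D1:**
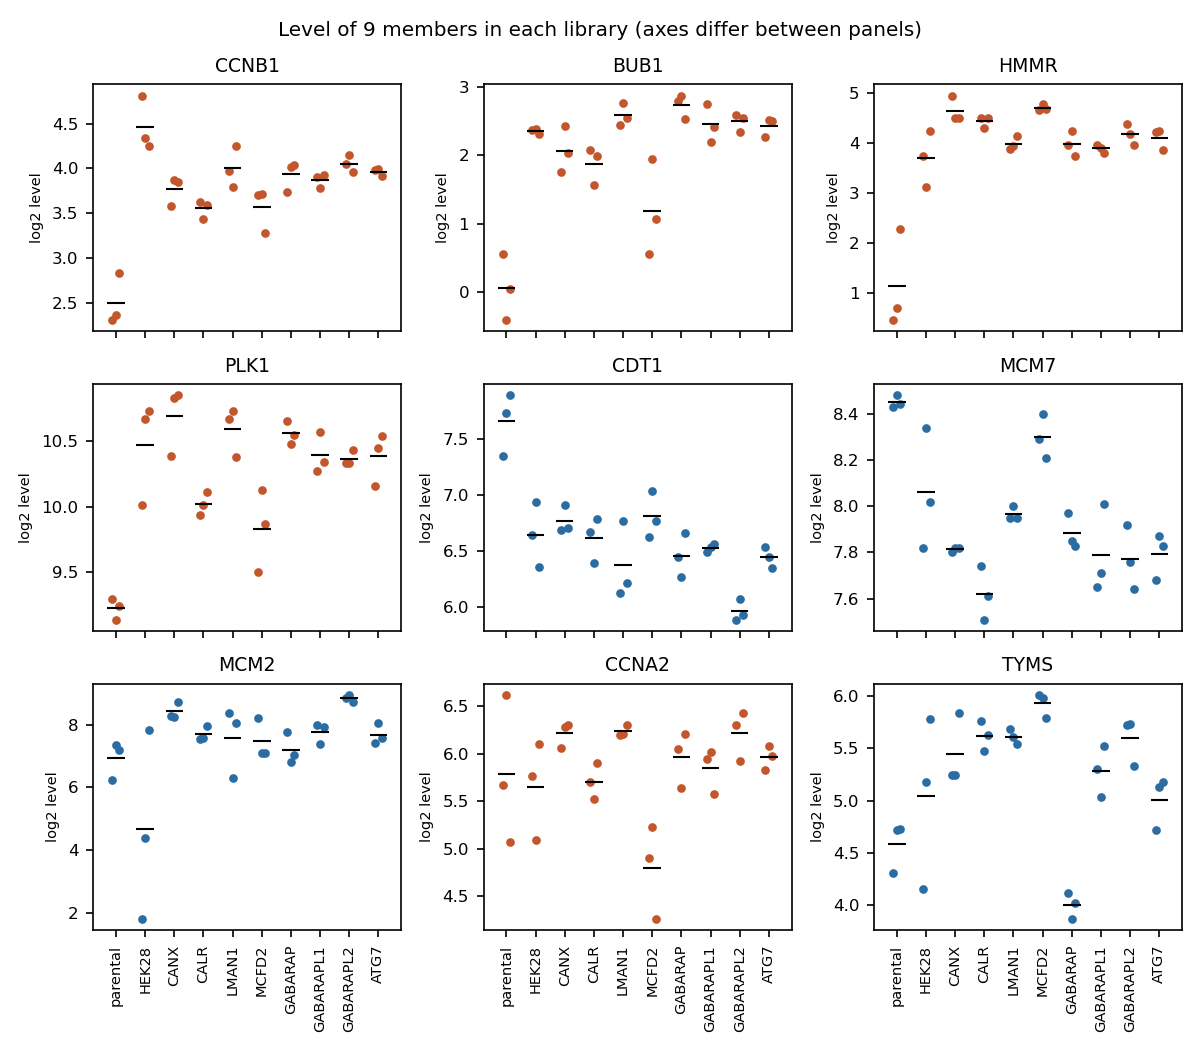
Log2 level per unit length of 9 members (y axis) in each of the 30 libraries (points), by group (x axis); bars are group means of 3 libraries. CCNB1, BUB1, HMMR and PLK1 are lowest in parental HEK and CDT1 and MCM7 highest there, MCM2 is low in 2 HEK28 libraries, CCNA2 and BUB1 are lowest of the knockouts in MCFD2, and TYMS is lowest in the GABARAP knockout.

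The balance of the sets can be given for each library as the median deviation of S-phase members from their means over the 30 libraries, minus the same for G2 and mitosis members. It was 0.41, 0.69 and 0.77 in the 3 parental libraries, a mean of 0.62 ± 0.19 (SD, n = 3). In HEK28 it was -0.19 ± 0.35 (SD, n = 3), and among the knockouts the group means ran from -0.24 (GABARAP) to 0.11 (GABARAPL2). All 27 other libraries lay between -0.59 and 0.22, below every parental library. The 13 of them shallower than parental replicate 3 lay between -0.59 and 0.04. The parental balance came from the mitotic side, where the median deviation was -0.72 ± 0.06 (SD, n = 3) against -0.09 ± 0.13 for S-phase members and -0.04 ± 0.06 for all genes tested. Among the 10 group means the parental line was lowest for 17 of 26 G2 and mitosis members and for 4 of 19 S-phase members. How often it was lowest over all genes tested was not counted, and the other groups are HEK28 or were made from it.

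**Figure D2:**
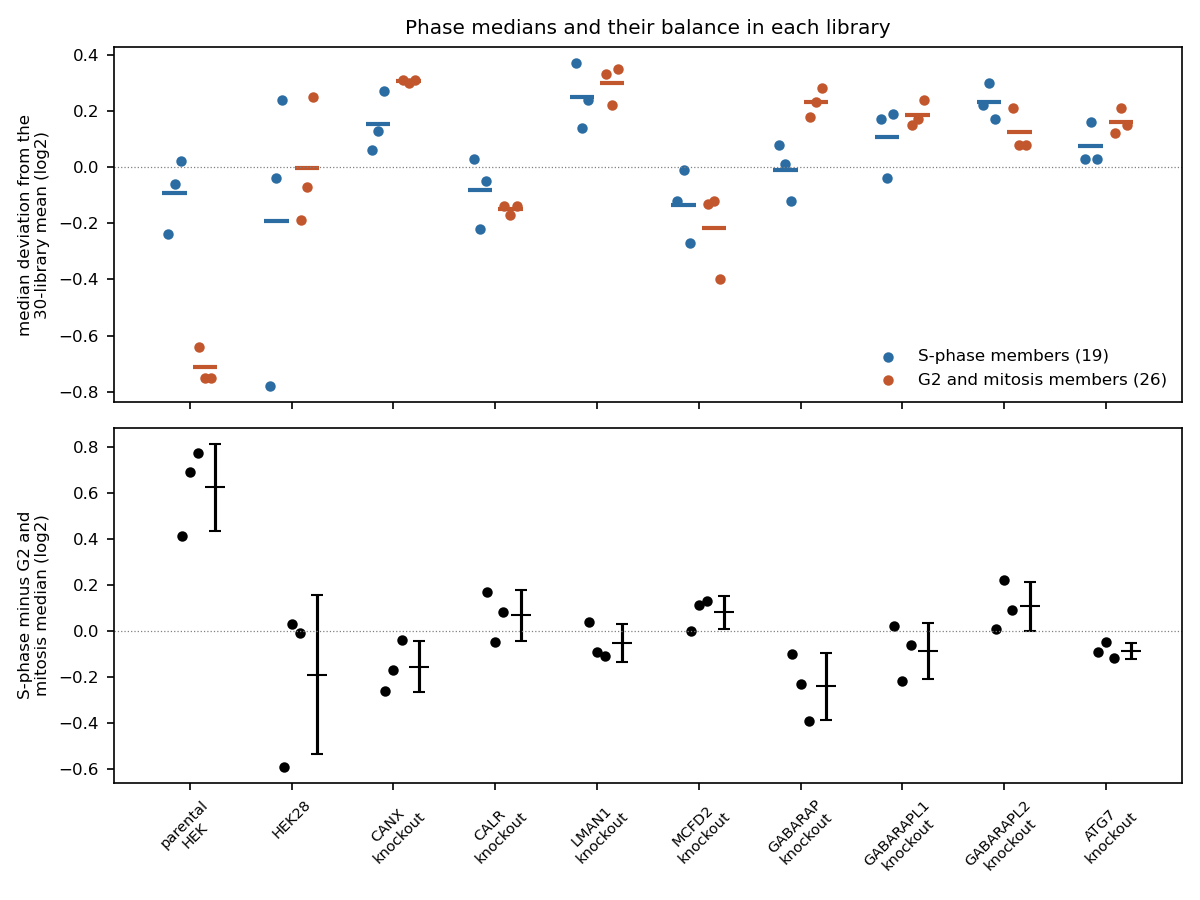
Above, the median deviation of S-phase and of G2 and mitosis members from their 30-library means (y axis, log2) in each library by group, with bars at group means; below, the balance of S-phase against G2 and mitosis members in each library (y axis, log2, points) by group (x axis), with the mean and SD of the 3 libraries. The 3 parental libraries (0.41 to 0.77) lie above the 27 others (-0.59 to 0.22).

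G2 and mitosis members also varied together across the 10 groups more than S-phase members did, as a description. Pearson's r between the group means of 2 members had a median of 0.52 over 325 pairs of G2 and mitosis members, 0.02 over 171 pairs of S-phase members and 0.15 over the 494 mixed pairs. Over the 8 knockouts alone, which leaves out the parental line and HEK28, the medians were 0.40, 0.16 and 0.19. The group means share their libraries' depth and composition.

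The promoter elements can be set beside these changes. Of the 18 G2 and mitosis members with a CHR element 13 were higher than parental HEK in HEK28 and 13 in the knockouts, and of the 3 without one 1 and 2 were. Median log2 differences were 0.81 and 0.60 with the element, and 0.39 and 1.01 without. The 11 S-phase members with an E2F element held 1 higher and 5 lower in HEK28, and 2 higher and 2 lower in the knockouts. With HEK28 replicates 1 and 2 left out, 10 of the 18 with a CHR element and 2 of the 3 without were higher in HEK28, and the E2F group held 2 higher and 1 lower. With 3 members lacking a CHR element, no comparison of the shares was made.

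Genes of the same pathways outside the 45 were read from set lists. Of 45 other mitosis genes tested 20 were higher and 2 lower in the knockouts than in parental HEK (median 0.61), and 14 higher and 1 lower in HEK28 (median 0.09). They included CKS2, a cyclin-dependent kinase subunit, at 2.05 (SE 0.21, adjusted p = 6.04e-08), and PSRC1, a spindle protein, at 2.73 (SE 0.40, adjusted p = 8.18e-06, from 8 parental reads), both in the knockouts. CKS1B, the sister of CKS2, was lower in HEK28 (-2.53, SE 0.45, adjusted p = 0.000158), as was CDKN2D, an inhibitor of the G1 kinases, there (-3.63) and in the knockouts (-2.15). CDKN2D had only 4 reads over the HEK28 libraries and 73 over the parental ones. Of 41 other replication genes 7 were higher and 7 lower in the knockouts, among them POLE2 (1.92, from 5 parental reads), and 3 and 3 in HEK28. Those are 17.1% in each direction in the knockouts, beside 23.9% higher and 13.4% lower over all genes, and 7.32% in each direction in HEK28, beside 16.7% and 15.2%. Of 33 G1 cyclins, kinases and regulators 10 were higher and 7 lower in the knockouts (30.3% and 21.2%), and 7 and 7 in HEK28 (21.2% each). E2F5 was among those higher in HEK28 (1.86, from 17 reads there and 8 in parental HEK). PSRC1, of the other mitosis genes, was higher in HEK28 too (2.06, from 26 and 8 reads), with libraries that overlapped. Without HEK28 replicates 1 and 2 the HEK28 counts were 13 higher and 0 lower for the other mitosis genes, 4 and 3 for the other replication genes and 7 and 6 for the G1 genes. The lone HEK28 library then gave -5.24 for CDKN2D, where few reads set the value, 3.62 for PSRC1, -0.64 for CKS1B and 1.07 for E2F5.

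Some regulators of the members passed the test too. CDKN1A, the p21 inhibitor of cyclin-dependent kinases and a p53 target, was lower than parental HEK in HEK28 (-1.35, SE 0.29, adjusted p = 0.000837) and in the knockout mean (-0.77, SE 0.21, adjusted p = 0.00673). Not every knockout was lower: the CALR mean was 4.96, above the 4.16 of parental HEK, with no overlap of libraries. The means were 4.04 in LMAN1, 3.88 in MCFD2 and 3.29 (CANX) or less in the other knockouts. MYBL2, which encodes B-MYB, was higher in HEK28 and in the knockout mean (0.77, SE 0.19, adjusted p = 0.00391 and 0.64, SE 0.15, adjusted p = 0.00122). Its CALR mean was 6.49, beside 6.45 in parental HEK, and the other knockouts had 6.96 (GABARAPL2) or more. E2F1 was higher in HEK28 (0.97, SE 0.25, adjusted p = 0.00516) and did not pass in the knockouts (0.38). CCND1, cyclin D1, was lower in HEK28 (-0.82, SE 0.24, adjusted p = 0.00952) and did not pass in the knockouts (-0.43), and RB1 was higher in the knockout mean (0.96, SE 0.35, adjusted p = 0.0333), from 2, 3 and 6 reads in the parental libraries. The RB1 mean was 1.58 in both MCFD2 and GABARAP, beside 1.54 in parental HEK, and 2.36 (LMAN1) or more in the other knockouts. Without HEK28 replicates 1 and 2 the calls of CDKN1A (-1.64) and MYBL2 (0.82) in HEK28 were kept and those of E2F1 (0.80) and CCND1 (-0.32) were lost, and with only the groups compared in the fit all 4 were lost. In the knockouts the call of CDKN1A was lost without parental replicate 3 (-0.55), and that of RB1 without any 1 parental library (0.87 to 1.11), with no filter, with voom weights and with an offset of 2 reads. FOXM1, with 138 reads over all libraries, was too low to be tested.

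Against their own line HEK28, the knockouts had members of both sets higher and lower, and most calls were lost without HEK28 replicates 1 and 2. For the mean of the 8 knockouts 6 S-phase members were higher (31.6%) and 4 lower (21.1%). Of G2 and mitosis members 4 were higher (15.4%) and 2 lower (7.69%), near the background of 17.5% and 7.28%. The largest rises were MCM2 (3.15), UBE2C (1.40), FEN1 (1.21), MCM6 (1.07), PCNA (0.99) and RRM1 (0.97), and the falls MCM5 (-0.99), GINS1 (-0.90), MCM3 (-0.73), MCM4 (-0.68), CCNB1 (-0.63) and TPX2 (-0.42), as log2 differences. PCNA, the sliding clamp of the polymerases, had levels of 3.07, 2.78 and 4.38 in HEK28, where replicates 1 and 2 were low, and 3.61, 4.28 and 5.23 in the knockouts. Without those replicates 0 of the 45 passed in limma (4 at an unadjusted p under 0.05), where 3.05% of all genes did, and of the named rises RRM1, FEN1, MCM6 and UBE2C changed sign.

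Knockout by knockout the same comparison gave 3 to 20 calls. In the CANX knockout 10 members were higher, led by MCM2 (3.74), UBE2C (1.72), MCM6 (1.48), FEN1 (1.13), RRM1 (1.10) and HMMR (0.95), and MCM4 (-0.89), MCM5 (-0.82), MCM3 (-0.73) and CCNB1 (-0.70) were lower (background 12.4% higher, 6.45% lower). In the CALR knockout MCM2 (3.01) and FEN1 (1.16) were higher and 10 were lower, led by GINS1 (-1.61), MCM5 (-1.0), TPX2 (-0.95), CCNB1 (-0.91), MCM4 (-0.75) and AURKA (-0.69) (background 12.0% and 6.19%). For LMAN1 the 5 calls were all higher, MCM2 (2.89), FEN1 (1.29), PCNA (1.16), AURKB (0.89) and CDK1 (0.61) (4.48% and 0.945%). Lower calls outnumbered higher ones in the CALR, MCFD2 and GABARAP knockouts. MCFD2 had 12 lower, led by MCM3 (-1.34), BUB1 (-1.17), CCNF (-1.17), MCM4 (-1.02), MCM5 (-0.97) and CCNB1 (-0.90), and MCM2 (2.79), HMMR (1.01), PCNA (0.95) and TYMS (0.89) higher (10.5% and 7.43%). In the GABARAP knockout AURKB (0.87) was higher and MCM5 (-1.08) and TYMS (-1.04) lower (4.02% and 1.63%). In GABARAPL1 MCM2 (3.09), FEN1 (1.36), BIRC5 (0.93) and AURKB (0.88) were higher and MCM5 (-0.87) and MCM4 (-0.82) lower (7.02% and 2.79%). MCM2 and FEN1, both low in HEK28 replicates 1 and 2, recur among these rises. The GABARAPL2 knockout had 12 higher, led by MCM2 (4.17), UBE2C (2.07), PCNA (1.73), KIF20A (1.55), FEN1 (1.54) and MCM6 (1.40), and 8 lower, led by CCNE2 (-1.30), MCM5 (-1.29), MCM3 (-1.21), CCNF (-1.05), CDT1 (-0.68) and TPX2 (-0.66) (18.4% and 7.74%). The ATG7 knockout had 7 higher, led by MCM2 (3.00), UBE2C (1.54), FEN1 (1.48), PCNA (1.23), BIRC5 (0.82) and CENPF (0.60), and MCM5 (-1.27), GINS1 (-1.13), MCM3 (-0.66) and TOP2A (-0.52) lower (8.30% and 4.24%).

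Without HEK28 replicates 1 and 2 few of these calls stood. In the CALR knockout 3 members passed in limma, TPX2 (-0.79, adjusted p = 0.0182) and CDCA8 (-0.82, adjusted p = 0.0479) among them. In MCFD2 there were 4, with PLK1 (-0.89, adjusted p = 0.012), MCM3 (-0.97, adjusted p = 0.0322) and CDCA8 (-0.86, adjusted p = 0.0368). TYMS passed in GABARAP (-1.78, adjusted p = 0.0017) and CDK1 in GABARAPL2 (0.76, adjusted p = 0.0445). The counts were then 0 for CANX, LMAN1, GABARAPL1 and ATG7, with 4, 4, 6 and 9 members at an unadjusted p under 0.05. In that fit 5.32% of all genes passed for CALR, 5.73% for MCFD2, 2.60% for GABARAP, 3.13% for GABARAPL2, 2.88% for CANX, 1.28% for LMAN1, 1.64% for GABARAPL1 and 2.23% for ATG7.

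Regulators differed from HEK28 in some knockouts. CDKN1A was higher in the CALR (2.15, SE 0.29, adjusted p = 3.18e-05), LMAN1 (1.23, adjusted p = 0.0196) and MCFD2 (1.06, adjusted p = 0.0129) knockouts and in the mean of the 8 (0.58, adjusted p = 0.0482). E2F1 was lower in CALR (-1.25, SE 0.25, adjusted p = 0.00188), MCFD2 (-1.15, adjusted p = 0.00349), CANX (-0.80, adjusted p = 0.0317) and the mean (-0.59, adjusted p = 0.0255), and MYBL2 in CALR (-0.73, SE 0.19, adjusted p = 0.0115). CCND1 was higher in GABARAP (0.86, adjusted p = 0.0362) and GABARAPL1 (0.95, adjusted p = 0.0159), and RB1 in GABARAPL2 (1.47, SE 0.46, adjusted p = 0.0236). When HEK28 replicates 1 and 2 were left out, CDKN1A passed in CALR (2.44) and MCFD2 (1.36) and MYBL2 in CALR (-0.78), and the others kept their direction and did not pass.

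Setting each knockout against the mean of the other 7 leaves HEK28 out of the difference, though its libraries still enter the fit's shared estimate of the spread. Below, the log2 levels of a knockout's 3 libraries are followed by the lowest, median and highest of the 21 libraries of the other 7. The line with MCFD2 targeted, the partner of LMAN1 in the factor VIII cargo receptor, had the most calls, 1 higher and 7 lower (background 1.60% higher, 3.41% lower), and its mitotic genes leaned down: 25 of 26 G2 and mitosis members had a negative difference, with a median of -0.39 against -0.04 over all genes. CCNA2 had levels of 4.90, 5.23 and 4.26 against 5.52, 6.05 and 6.43 in the others. Its 3 libraries lay below all 21 others, and it was lower by -1.23 (SE 0.23, adjusted p = 0.00261). BUB1 had 0.56, 1.94 and 1.07 against 1.56, 2.44 and 2.87 in the others, a fall of -1.19 (SE 0.23, adjusted p = 0.00308), and BUB1B 6.61, 6.94 and 6.42 against 6.81, 7.48 and 8.08 in the others, a fall of -0.77 (SE 0.15, adjusted p = 0.00331). For each of this checkpoint pair 1 MCFD2 library lay within the range of the others and the other two lay below it. PLK1 had 9.50, 10.13 and 9.87 against 9.94, 10.43 and 10.85 in the others (difference -0.60 (SE 0.13, adjusted p = 0.00784)), AURKA 10.19, 10.22 and 9.60 against 9.83, 10.68 and 11.16 in the others (difference -0.58 (SE 0.13, adjusted p = 0.0109)) and CDCA8 5.04, 4.61 and 4.85 against 4.79, 5.38 and 5.82 in the others (difference -0.49 (SE 0.14, adjusted p = 0.0458)). Of the S-phase members, MCM3 was lower and MCM7 higher. MCM3 had 5.17, 5.86 and 5.26 against 5.33, 6.17 and 6.65 in the others, a difference of -0.70 (SE 0.15, adjusted p = 0.00821). MCM7 had 8.29, 8.40 and 8.21 against 7.51, 7.82 and 8.01 in the others, with all 3 libraries above the 21 others, a difference of 0.49 (SE 0.11, adjusted p = 0.00634). Leaving out MCFD2 replicate 1 ended the calls of BUB1 (-0.87), PLK1 (-0.43) and MCM3 (-0.57), replicate 2 that of MCM7 (0.44), and replicate 3 those of CCNA2 (-0.96), BUB1B (-0.65), AURKA (-0.38) and MCM3 (-0.61), and CDCA8 was lost without any of the 3 or without most single libraries of the other knockouts.

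The genes around some of these members on the chromosome differed in the same direction. Within 5 Mb of MCM7, on chromosome 7, 66 of 79 tested genes were higher in the MCFD2 knockout, with a median of 0.40 beside the 0.49 of MCM7, and near BUB1B, on chromosome 15, 58 of 74 were lower, with a median of -0.30 beside -0.77. The neighbours of MCM3 had a median of -0.34, those of CCNA2 -0.17, those of BUB1 -0.03 and those of PLK1 0.01. Beyond their neighbours' medians the differences were -1.16 for BUB1, -1.06 for CCNA2, -0.62 for AURKA, -0.61 for PLK1, -0.47 for BUB1B, -0.44 for CDCA8, -0.36 for MCM3 and 0.09 for MCM7. The part of the neighbourhoods in the members' differences was not tested.

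In the knockout of CALR, the chaperone calreticulin, TPX2 and AURKA were lower than in the other 7 (background 1.44% higher, 1.46% lower). TPX2 had levels of 8.05, 8.29 and 8.15 against 8.38, 8.83 and 9.14 in the others, and all 3 lay below the 21 others (difference -0.60 (SE 0.13, adjusted p = 0.00897)). AURKA had 10.07, 9.95 and 9.83 against 9.60, 10.68 and 11.16 in the others (difference -0.64 (SE 0.13, adjusted p = 0.0083)). Both lie on chromosome 20, where 49 of 54 genes within 5 Mb of TPX2 (median -0.45) and 23 of 26 near AURKA (median -0.51) were lower too. The other members on that chromosome, PCNA, GINS1 and UBE2C, also had their lowest knockout mean in CALR (3.80, 6.67 and 7.55) and did not pass. The part of the chromosome in these and the following differences was not tested. G2 and mitosis members had a median of -0.28 with 3 of 26 positive, and none of 45 other mitosis genes had a positive difference (median -0.33, 0 of 45), against 0.01 over all genes. CDC25B, the phosphatase that activates CDK1, was among these (-0.77, SE 0.18, adjusted p = 0.0187). Some regulators passed here too. CDKN1A was higher by 1.78 (SE 0.22, adjusted p = 2.88e-05). Its levels were 4.87, 5.06 and 4.95 against 1.60, 3.23 and 4.39 in the others, and no other knockout library reached these. MYBL2 was lower by -0.69 (SE 0.15, adjusted p = 0.00952), with levels of 6.49, 6.37 and 6.59 against 6.91, 7.17 and 7.63 in the others, below all 21 others. E2F1 was lower by -0.75 (SE 0.19, adjusted p = 0.0315), with levels of 5.85, 5.64 and 5.63 against 5.23, 6.55 and 7.19 in the others. RNASEH2A, a subunit of ribonuclease H2 (-0.80), and CLSPN, the adaptor claspin (-0.47), were also lower. Without CALR replicate 1 or 3 TPX2 did not pass (-0.55 and -0.60), and without replicate 2 or 3 AURKA did not (-0.64 and -0.58). E2F1 was lost without any 1 of the 3 CALR libraries (-0.83 to -0.71), and MYBL2 without replicate 1 or 2 (-0.70 and -0.64). CDKN1A passed whichever library was left out.

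TYMS, which makes the thymidylate for DNA synthesis, was the single member called in the GABARAP knockout and had the largest difference of the members that passed against the other 7. Its levels were 4.12, 3.87 and 4.02 against 4.72, 5.54 and 6.01 in the others. All 3 lay below every other knockout library, a fall of -1.49 (SE 0.21, adjusted p = 0.000263) (background 0.795% higher, 1.87% lower). Of the 15 tested genes within 5 Mb on chromosome 18, 12 were lower, with a median of -0.87. ENOSF1, which overlaps TYMS on the other strand, had -0.58 (adjusted p = 0.269), and whether the counting used strand is not given in the sources used here. The call of TYMS was kept when any 1 library was left out. NDC80, a kinetochore protein (-1.11, SE 0.25, adjusted p = 0.0157), and LIN9, a MuvB subunit (-2.03, SE 0.44, adjusted p = 0.0111, from 9 reads), were lower in the same knockout.

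In the GABARAPL2 knockout 1 S-phase member was higher and 2 lower of 19, and 1 of 26 G2 and mitosis members was lower (background 2.57% higher, 1.53% lower). PCNA had levels of 5.04, 5.15 and 5.23 against 3.61, 4.23 and 4.85 in the others, all above the other 21, a rise of 0.85 (SE 0.23, adjusted p = 0.0338). CDT1 had 5.89, 6.07 and 5.93 against 6.13, 6.56 and 7.04 in the others, all below the other 21, a fall of -0.61 (SE 0.15, adjusted p = 0.0191). MCM3 had 5.62, 5.69 and 5.33 against 5.17, 6.17 and 6.65 in the others (difference -0.56 (SE 0.15, adjusted p = 0.041)), and CENPF 7.11, 7.03 and 6.92 against 6.95, 7.38 and 7.91 in the others (difference -0.40 (SE 0.11, adjusted p = 0.0363)). Neighbours within 5 Mb had medians of 0.19 for PCNA, -0.08 for CDT1, -0.36 for MCM3 and 0.11 for CENPF. Outside the members, MYC (1.87, SE 0.47, adjusted p = 0.0222), the kinase CDC7 (1.26), the histone mRNA binder SLBP (1.24) and the origin subunit ORC6 (0.86) were higher, as was RB1, with levels of 3.67, 3.35 and 3.78 against 1.04, 2.41 and 3.32 in the others (difference 1.26 (SE 0.35, adjusted p = 0.0415)). After quantile normalisation the share of all called genes that were higher fell from 62.7% to 47.5% in this comparison. With any 1 of the 3 GABARAPL2 libraries left out, PCNA (0.80 to 0.90), CDT1 (-0.67 to -0.57), MCM3 (-0.63 to -0.45), CENPF (-0.45 to -0.35) and RB1 (1.17 to 1.39) kept their direction and did not pass.

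The knockout of ATG7, the enzyme that activates the GABARAP family for its attachment to lipid, had 2 members higher and 1 lower (background 0.309% higher, 1.13% lower). BUB1B had levels of 7.89, 8.08 and 7.64 against 6.42, 7.28 and 7.66 in the others (difference 0.62 (SE 0.15, adjusted p = 0.0383)), and CENPF 7.74, 7.91 and 7.79 against 6.92, 7.32 and 7.77 in the others (difference 0.51 (SE 0.11, adjusted p = 0.0146)). In each 1 of the other 21 libraries lay above the lowest ATG7 library. AURKB had 10.55, 10.52 and 10.38 against 10.68, 11.18 and 11.50 in the others, all below the other 21, a fall of -0.63 (SE 0.13, adjusted p = 0.00831). The medians of neighbours within 5 Mb were 0.13, 0.06 and -0.24. CDKN1A was lower here by -1.55 (SE 0.22, adjusted p = 0.000306), with levels of 2.55, 1.60 and 1.98 against 2.56, 3.34 and 5.06 in the others, opposite to its place in the CALR knockout. BUB1B (0.51 to 0.73) and CENPF (0.46 to 0.54) did not pass with any 1 ATG7 library left out, nor did AURKB without replicate 3 (-0.58).

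In the CANX, LMAN1 and GABARAPL1 knockouts 0 members passed in limma against the other 7, with 9, 9 and 4 members at an unadjusted p under 0.05 and 4, 6 and 1 passing with voom weights on the recovered reads. At adjusted p in the main fit the background was 0.530% higher and 0.865% lower for CANX, 0.618% and 0.424% for LMAN1, and 0.132% and 0.221% for GABARAPL1. Those shares are beside the calls of 0, and none over all genes is given for the unadjusted and voom counts. G2 and mitosis members had positive medians in each, 0.24, 0.21 and 0.06. LMAN1 replicate 2, which differed from the other LMAN1 libraries, was part of these comparisons. SMC4, a condensin subunit outside the members, was higher in the CANX knockout (0.48, SE 0.12, adjusted p = 0.0375).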

How the data were processed

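RNA was purified with a column kit from untreated cultures at about 70% confluency and sequenced as 3' RNA-seq, per the labels' protocols, 3 libraries in each of 10 groups set by title and genotype (the cell line label reads HEK28 for all 30). Per the submitters' processing notes, the tools were TopHat2, Bowtie, cutadapt and FastQC and the build hg38, with no versions. What counted the reads, on which annotation, and how values were normalised is not given in the sources used here. The authors deposited log2 values, 16975 genes by 30 samples. From the values they are log2 of reads plus 0.5 divided by gene length and library size, up to a constant: 99.986% lay on a whole read, and reads were recovered for 16892 genes (not for TOP2A).

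All 30 samples entered 1 limma model (limma 3.58.1, R 4.3.3) on the log2 values, with 1 coefficient per group, mean-variance trend and robust moderation. A gene was tested with at least 3 libraries at 17 CPM or more (10 reads at the median depth) and 15 reads in all, which left 11327. The p-values are two-sided, Benjamini-Hochberg adjusted over these genes within each comparison, with a threshold of 0.05. A count model was planned only for raw counts, so limma was used. Methods were tested on simulated data. The members and lists were chosen with earlier results of these data known. Members that passed are named, at most the 6 largest rises and 6 largest falls, with library values for those that passed in both parental comparisons or against the other 7 knockouts; CDKN1A, E2F1, FOXM1, MYBL2, CCND1 and RB1 are given where they passed and otherwise at most 4 genes of other lists per comparison. Replicate pairs differed beyond counting noise (lowest chi-square per degree of freedom 1.52). Positions come from GENCODE 29 (GRCh38) and promoters from RefSeq (GRCh38.p14).

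Depth limits precision: 16 members overlap a gene on the other strand and 10 a gene on the same strand, and reads shared with those, with paralogs or with pseudogenes cannot be told apart. Of the marker lists, genes not listed in the table were not analysed here. Alternatives were no filter on low values, quantile normalisation, voom weights, an offset of 2 reads, a replicate block, no trend or robust estimation, only the groups compared, HEK28 replicates 1 and 2 left out, and each library left out in turn.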

Additional observations from a re-analysis of the deposited data

Results flagged for a closer look

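Direct comparisons of knockouts, chosen after their values were seen, differed for a pair of members. The adjusted p-values cover the genes within a comparison and make no allowance for that choice. BUB1B, the checkpoint inhibitor BUBR1, was higher in the ATG7 than in the MCFD2 knockout by 1.21 (log2, SE 0.20, limma adjusted p = 0.00092), the groups in which it was highest and lowest of the 8. CENPF, the kinetochore protein, was higher in the ATG7 than in the GABARAPL2 knockout by 0.79 (SE 0.14, limma adjusted p = 0.00385), again the highest and the lowest of the 8. No cause was tested for either.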

How the results depend on the processing

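Of 198 calls of members and regulators, 185 were kept with an offset of 2 reads, 187 without trend and robust estimation, 181 after quantile normalisation, 160 with no filter, 153 of 194 with voom weights and 75 with only the groups compared in the fit. No direction reversed in those settings. The replicate block kept 192: G2 and mitosis members called against parental HEK numbered 17 in HEK28 and 18 in the knockouts, and S-phase members 10 and 7, and no count moved by over 1.5 times. The numbers did not pair the samples: same-numbered samples had a median r of -0.01 over 135 pairs (-0.25 to 0.38), and 10 of 30 samples correlated best with their own number.

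Without HEK28 replicates 1 and 2, 25 of 146 calls were kept and 26 changed sign. Against parental HEK these were CCNF -0.19, PCNA 0.10 and MCM2 0.90. In the mean of the knockouts against HEK28 they were RRM1 -0.34, FEN1 -0.07, RRM2 -0.29, MCM6 -0.37 and UBE2C -0.36. In CANX they were RRM1 -0.20, FEN1 -0.15, RRM2 -0.13, PCNA -0.02 and UBE2C -0.04, and in CALR FEN1 -0.12 and MCM2 -0.14. MCM2 was at -0.26 in LMAN1, -0.36 in MCFD2 (PCNA -0.02), -0.06 in GABARAPL1 and -0.15 in ATG7 (TOP2A 0.01, UBE2C -0.22). In GABARAPL2 RRM1 was at -0.05, CCNF 0.12, RRM2 -0.17 and MCM6 -0.05. The S-phase count against parental HEK was then 5, and against HEK28 the counts were 0 for the knockout mean (4 at an unadjusted limma p under 0.05), 3 for CALR, 4 for MCFD2, 1 for GABARAP, 1 for GABARAPL2, and 0 for CANX, LMAN1, GABARAPL1 and ATG7 (unadjusted 4, 4, 6 and 9). The cause was not tested.

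With only the groups compared, which leaves fewer samples, limma called 0 S-phase members (7 unadjusted) and 5 G2 and mitosis members in HEK28 against parental HEK, and 0 in each single knockout against HEK28 (unadjusted CANX 8, CALR 7, LMAN1 2, MCFD2 9, GABARAP 3, GABARAPL1 7, GABARAPL2 14, ATG7 5). Against the other 7 it called 8 for CALR, 13 for MCFD2 and 10 for GABARAPL2. Voom weights gave 6 S-phase members in HEK28 against parental HEK, 8 for the knockout mean and 5 for ATG7 against HEK28, and against the other 7 CANX 4, CALR 15, LMAN1 6, MCFD2 16, GABARAPL1 1 and GABARAPL2 21. With no filter the counts were 8 for CANX, 2 for LMAN1 and 6 for ATG7 against HEK28 and 1 for GABARAPL2 against the other 7, and after quantile normalisation 3 for LMAN1 against HEK28. As a mean over members the balance was 0.16 in MCFD2 and -0.14 in ATG7. Shares over all genes under these settings are not given beside the counts, and the cause of these moves was not tested.

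Leaving out each replicate in turn, S-phase counts ran from 6 to 13 (HEK28 against parental HEK) and 4 to 8 (knockouts against parental HEK, lowest without parental replicate 1). Against HEK28 the counts over all members ran from 6 to 24 for the knockout mean, CANX 3 to 23, CALR 7 to 24, LMAN1 0 to 16, MCFD2 6 to 25, GABARAP 1 to 15, GABARAPL1 1 to 18, GABARAPL2 8 to 23 and ATG7 1 to 20, each highest without HEK28 replicate 3. Against the other 7 they ran from 0 to 3 for CALR, 3 to 8 for MCFD2, 0 to 6 for GABARAPL2 and 0 to 3 for ATG7. A lone remaining library is taken to vary like the other groups. Quantile normalisation moved the median of all genes by -0.13 in GABARAPL2 against HEK28 and the share of calls that were higher from 70.4% to 59.1% there and from 59.3% to 39.4% in LMAN1 against the other 7. The 10 to 923 reads per member over the 3 parental libraries, and 14 to 709 over the 3 of HEK28, limit what could be detected.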
